A study of Mus musculus with 2 samples.

Results

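The antioxidant gene set comprised 54 genes read by 85 probes, out of 37008 gene names and 56605 probes on the array. Members were taken by gene symbol: the glutathione peroxidases (Gpx), the glutathione S-transferases (Gst and the membrane-bound Mgst), the peroxiredoxins (Prdx), the thioredoxin reductases (Txnrd) and the superoxide dismutases (Sod). They were joined by Gclc, Gclm, Gss, Gsr, Cat, Srxn1, Nqo1, Nfe2l2, Keap1, Txn2 and Txnip, while Txn1 stood outside the set. They were measured in peritoneal macrophages, the resident and recruited macrophages of the abdominal cavity, kept in DMEM with serum. One group was wild-type (WT) and the other MeXis null, lacking the long noncoding RNA MeXis; the strain of both was given as bl6. No ligand or other treatment and no age were named, and how the null allele was made was not stated. Each genotype was 1 one-colour Agilent array of RNA pooled from 3 samples, so no test of genotype and no p-value was possible, and every difference is one between these 2 arrays.

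Cells meet reactive oxygen species with several linked enzyme systems. Superoxide dismutases turn superoxide into hydrogen peroxide, and catalase, glutathione peroxidases and peroxiredoxins then reduce the peroxide. The glutathione peroxidases draw on glutathione, made by glutamate-cysteine ligase and glutathione synthetase and recycled by glutathione reductase, while most peroxiredoxins draw on thioredoxin, recycled by thioredoxin reductases. Glutathione S-transferases attach glutathione to reactive compounds. The transcription factor NRF2 (gene Nfe2l2) activates many of these genes through antioxidant response elements and is held low by KEAP1, which directs it to the proteasome. In macrophages the superoxide comes largely from the phagocyte NADPH oxidase.

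Values were processed signals of the scanner software on a linear scale. Differences were log2 values of MeXis null minus WT and are followed by the scanner's own error (±). Each array was first divided by its 75th percentile signal over spots well above background on both arrays (3535 on WT and 3723 on MeXis null). The only further measure of error came from 285 probes printed several times on each array, for which the difference varied between spots of one probe with a median SD of 0.47. A difference beyond 0.91, or 1.88-fold, was therefore taken as lying outside the spread between spots. Calls needed 1.5-fold and a difference whose 95% range by the scanner error left out 0, so a called gene can still lie inside that spread. The arrays also differed unevenly across their surface, and each value was recomputed after subtracting the median difference of the 100 nearest spots, termed local surface correction here, which lowered the SD between spots to 0.33.

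The share of spots other than controls well above background was 48.0% for WT and 44.3% for MeXis null. The lowest such signals were 12.1 and 27.3. The probe for AI427809, the array's name for MeXis, carried no above-background flag on WT (12.3) or MeXis null (8.44) and could not check the labels. Of 11 macrophage markers 10 were above background on both arrays, with Cd68 at 115942 and 196155 and Lyz2 at 71554 and 179211, while Timd4 was on neither. Of those 10, 4 were called higher and 2 lower. Counts for markers of other cells follow, against the same 18.9% higher and 13.6% lower over all genes. Of 10 fibroblast markers above background on both arrays 6 were called higher and 0 lower (summed scaled level 6.01 on WT and 6.58 on MeXis null), with Mfap5 on neither array and Lum on WT only. Of 8 mesothelial markers 5 were higher and 0 lower (0.280 and 0.636). Of 6 B cell markers 4 were lower and 0 higher (1.08 and 0.662). Eosinophil markers summed to 1.22 and 0.436, with Siglecf the only one on both arrays and Epx, Prg2 and Ccr3 on neither. Il5ra (24.3 and 21.2), Ear1 (376 and 28.6) and Ear2 (1475 and 34.3) were above background on WT only. Of 4 neutrophil markers 1 was lower and 0 higher (5.73 and 3.58). The lower one was Csf3r, the brightest (18755 and 11696), while Mmp8 was at 0.15, Elane at 0.21 and S100a8 at -0.45. Cxcr2 was above background on WT only and S100a9 on neither array. Of 4 T and NK cell markers 1 was higher and 1 lower (0.294 and 0.252). Mast cell markers summed to 0.114 and 0.103, with Cpa3 (37.1 and 6.32) and Cma1 (60.6 and 8.24) above background on WT only. Tpsb2, the brightest of them (252 and 325, 0.29), and Hdc (51.5 and 43.9, -0.31) were on both arrays and not called. Kit was on neither. All 5 erythroid markers were below background. With local surface correction 5 of 10 fibroblast and 4 of 8 mesothelial markers were higher and 0 lower. Lower were then 5 of 6 B cell, 2 of 4 neutrophil, 1 of 4 T and NK cell and 1 of 2 mast cell markers, with 0 higher. Over all genes the corrected shares were 11.4% higher and 13.1% lower. In such pooled RNA fewer cells of a type and less RNA per cell cannot be told apart.

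The probes that carried the members at least 2-fold apart are shown next, each a 60-base oligonucleotide written 5′ to 3′ in lower case with its mm9 position and strand as the files give them. For Mgst1, Nfe2l2, Prdx6 and Sod1 the second usable probe is shown too, because the readings of a gene's probes differed. The gene was represented by the probe named first.
Gpx8 (chr13:113833213-113833272, minus strand): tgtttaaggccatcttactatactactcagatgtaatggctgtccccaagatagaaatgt
Gpx3 (chr11:54723436-54723495, plus strand): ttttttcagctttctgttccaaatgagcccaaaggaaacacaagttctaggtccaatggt
Gpx7 (chr4:108073303-108073362, minus strand): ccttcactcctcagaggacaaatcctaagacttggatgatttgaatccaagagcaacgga
Prdx6 (chr1:163171138-163171197, minus strand): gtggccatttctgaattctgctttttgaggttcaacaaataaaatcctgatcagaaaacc
Prdx6, second probe (chr1:163173715-163173774, minus strand): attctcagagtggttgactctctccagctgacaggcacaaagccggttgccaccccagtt
Nfe2l2 (chr2:75513771-75513830, minus strand): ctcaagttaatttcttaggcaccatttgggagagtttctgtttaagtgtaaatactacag
Nfe2l2, second probe (chr2:75529291-75529350, minus strand): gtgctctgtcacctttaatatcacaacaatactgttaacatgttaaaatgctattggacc
Sod1 (chr16:90226497-90226556, plus strand): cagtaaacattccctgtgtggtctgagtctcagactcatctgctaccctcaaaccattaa
Sod1, second probe (chr16:90224181-90224240, plus strand): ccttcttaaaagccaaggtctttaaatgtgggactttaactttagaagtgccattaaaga
Nqo1 (chr8:109912440-109912499, minus strand): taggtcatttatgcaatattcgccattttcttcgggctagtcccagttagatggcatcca
Mgst1 (chr6:138105021-138105080, plus strand): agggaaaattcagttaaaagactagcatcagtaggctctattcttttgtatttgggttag
Mgst1, second probe (chr6:138104846-138104905, plus strand): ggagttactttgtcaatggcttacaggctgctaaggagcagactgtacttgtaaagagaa
Mgst2 (chr3:51486449-51486508, plus strand): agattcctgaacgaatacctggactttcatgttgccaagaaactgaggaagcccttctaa
Whether these bases lie in coding or noncoding exon sequence was not analysed here. The 2 Mgst1 probes lie 115 bases apart and share no run longer than 5 bases.

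Of the 54 genes, 46 were above background on both arrays, 7 on neither (Gpx5, Gpx6, Gsta2, Gsta4, Gstm7, Gstt4 and Sod3) and 0 on 1 array only. Catalase, read by 1 probe, was set aside because the scanner software marked its spot as an outlier on WT. Of these 46 genes, 12 were called higher and 5 lower in MeXis null. That is 26.1% higher and 10.9% lower, against 18.9% and 13.6% of the 15474 genes that could be compared. The median difference was 0.23, against 0.05 for all genes. Local surface correction left 8 higher and 3 lower, all among the first calls, or 17.4% and 6.52% against 11.4% and 13.1% of all genes, and moved the median to 0.01, against -0.04 for all genes. With no filter on dim probes the median of 53 members, 0.24, lay below that of all genes, 0.47. The share called in either direction was 37.0% against 32.6%, and 23.9% against 24.5% after correction, so the set as a whole lay close to the array's background. Outside the spread between spots were 7 higher and 2 lower members, 15.2% and 4.35% against 9.41% and 5.72% of all genes, and 19.6% against 15.1% in either direction. The same 7 and 2 members were at least 2-fold apart, a distance reached upward by 7.68%, downward by 4.56% and either way by 12.2% of all genes. With the median of a gene's probes in place of one probe, 12 members were higher and 4 lower, against 18.0% and 10.9% of all genes (28.9% together).

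**Figure D1:**
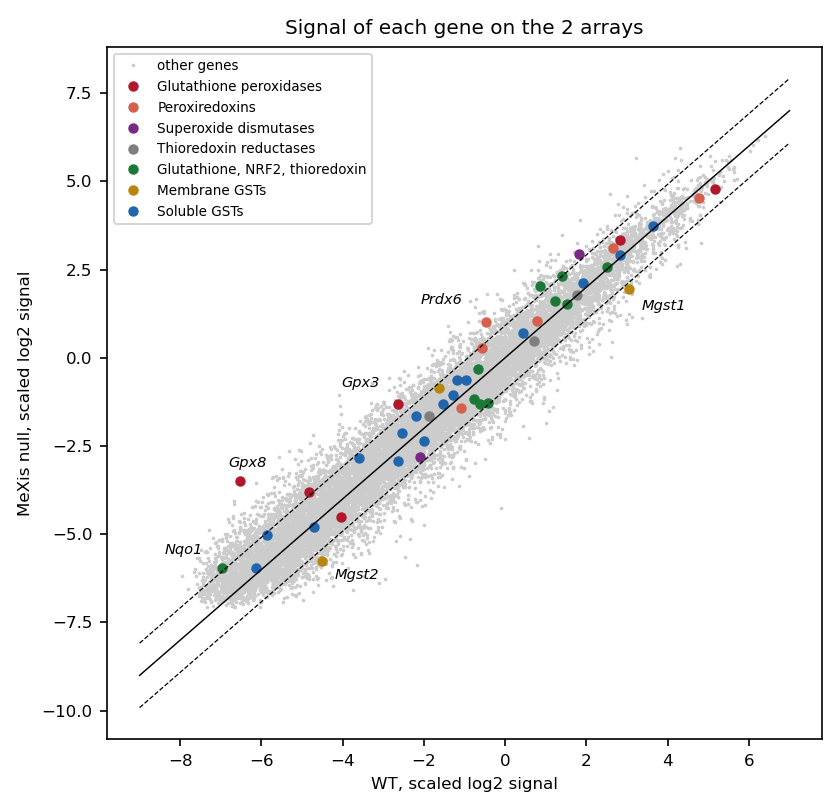
Scaled log2 signal of each gene above background on both arrays, WT on the horizontal and MeXis null on the vertical axis, with antioxidant members coloured by family and other genes in grey. The solid line marks equal signal and the dashed lines a difference of 0.91 either way; Gpx8 lies farthest from equality among the members, at 3.04, and Mgst2 farthest below, at -1.27.

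NRF2 and its inhibitor were read in opposite directions. Nfe2l2 read 6393 on WT and 15229 on MeXis null, 2.26-fold higher (1.18 ± 0.20), outside the spread between spots. Keap1, the adaptor that hands NRF2 to the CUL3 ubiquitin ligase, read 2652 and 1539, 1.81-fold lower (-0.86 ± 0.20), inside that spread. Both calls ended with local surface correction: the spots around Nfe2l2 had a median difference of 0.68 and those around Keap1 one of -0.70, leaving 0.50 and -0.16. A second Nfe2l2 probe, 15460 bases from the first and named for an Ensembl transcript, read 383 and 342, a difference of -0.24. Other members of NRF2 control went both ways, 4 of 17 being higher (23.5%, against 18.9% of all genes) and 2 lower (11.8%, against 13.6%) around a median of 0.14. Cul3 (2.57-fold, 260 and 703) and Ep300, an acetyltransferase coactivator (2.55-fold, 152 and 407), were the highest. Mafg, a small MAF protein with which NRF2 binds DNA, was 2.73-fold lower (9833 and 3797), and the repressor Bach2 1.76-fold lower (229 and 137). The repressor of NRF2 targets Bach1 (0.71) and the related factor Nfe2l1 (0.97) were also higher. With local surface correction 4 were higher and 4 lower (23.5% each, against 11.4% and 13.1%), with Gsk3b and Nfe2 joining the lower genes; Mafg stood at -1.16 and Cul3 at 1.24.

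Of the 4 genes of glutathione synthesis and recycling, 1 was called, where 32.6% of all genes were called in either direction. After local surface correction none of the 4 was called, against 24.5% of all genes. Gclc, the catalytic subunit of glutamate-cysteine ligase, read 2314 on WT and 1512 on MeXis null, 1.61-fold lower (-0.69 ± 0.20), and was at -0.03 after local surface correction, its 100 neighbours having a median of -0.66. Gclm, the modifier subunit, read 2242 and 2962 (0.33 ± 0.20, and 0.33 after correction). Glutathione synthetase Gss read 2074 and 1644 (-0.41), with a second probe at -0.05, and glutathione reductase Gsr read 10225 and 10735 (-0.0044). None of Gclm, Gss and Gsr reached 1.5-fold. Among 19 measured genes of the glutathione cycle and thiol repair outside the set, 4 were higher (21.1%) and 3 lower (15.8%) around a median of -0.12, against 18.9% and 13.6% of all genes around 0.05. Surface-corrected, 3 were higher (15.8%) and 2 lower (10.5%) around 0.0039, against 11.4% and 13.1% around -0.04. The methionine sulfoxide reductase Msra was 2.52-fold higher (1604 and 4265) and the glyoxalase Glo1 1.97-fold higher (908 and 1882). Oplah, the 5-oxoprolinase of the glutathione cycle, was 1.81-fold lower (246 and 143) and Chac1, which degrades glutathione, 1.55-fold lower (500 and 341). The cystine transporter subunit Slc7a11 was at -0.48 and thioredoxin Txn1 at -0.45, neither called.

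The glutathione peroxidases held the largest difference of the set. Gpx8, a membrane enzyme of the endoplasmic reticulum with cysteine in place of selenocysteine at its active site, read 38.5 ± 5.80 on WT and 333 ± 34.1 on MeXis null, 8.21-fold higher (3.04 ± 0.26). The WT signal was dim, though above the 12.1 at which spots there began to count as above background. The difference was 2.50 after local surface correction and 2.0 with normexp background correction, and the gene was called under both. Gpx7, its close relative in the same compartment, read 125 and 268, 2.04-fold higher (1.03 ± 0.21, and 0.76 after correction). Gpx3, the secreted plasma enzyme, read 573 and 1487, 2.47-fold higher (1.30 ± 0.20), but its neighbours had a median of 0.84 and the corrected difference of 0.46 was not called. Beside these 3 genes, 6 of 10 fibroblast markers were called higher, against 18.9% of all genes, from 0.76 for Col1a1 to 1.85 for Fbn1. The other 4 were not called and ran from -0.40 for Fstl1 to 0.32 for Dcn, and Lum, on WT only, read 131 and 40.3. Fstl1, the brightest fibroblast marker on both arrays (13502 and 10749), weighed most in the summed fibroblast level of 6.01 and 6.58. That sum therefore mixes Fstl1, at -0.40, with the markers called higher and the others. The summed level of the mesothelial markers, 5 of 8 called higher and all 8 above 0, was 0.280 and 0.636. The part of those cells in the 3 differences was not tested. The selenoenzymes of all cells differed less. Gpx1, the cytosolic form, read 126038 and 103178 (-0.36 ± 0.20), and Gpx4, which reduces phospholipid hydroperoxides and guards against ferroptosis, read 25004 and 37564 (0.51 ± 0.20). Gpx2, known from the gut epithelium, read 216 and 162 (-0.49 ± 0.22). None of Gpx1, Gpx2 and Gpx4 was called.

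Of 6 peroxiredoxins 2 were called higher and 0 lower. That is 33.3% called, close to the 32.6% of all genes called in either direction. Prdx6, the 1-Cys enzyme that also acts on phospholipids, read 2542 on WT and 7498 on MeXis null, 2.80-fold higher (1.49 ± 0.20, and 0.99 after local surface correction). Its second probe read 1842 and 2153 (0.15, and 0.50 after correction) and is also listed under the transcript of Prdx6b, so it may not tell the copies apart. Prdx4, the peroxiredoxin of the endoplasmic reticulum, read 2396 and 4488, 1.78-fold higher (0.83 ± 0.20, and 0.69 after correction). Sulfiredoxin Srxn1, which restores overoxidised peroxiredoxins, read 9377 and 18547, 1.88-fold higher (0.91 ± 0.20, and 0.87 after correction). Its difference was 1.99 with normexp background correction, and its neighbours had a median of 0.04. Prdx4, Prdx6 and Srxn1 were called at every one of the 11 alternative settings, all with the 1.5-fold threshold. Prdx6 lay outside the spread between spots. Prdx4 lay inside it, and so, narrowly, did Srxn1 (0.909 against a limit of 0.914), and neither reached 2-fold. The mitochondrial Prdx3 read 1668 and 1374 (-0.35), and Prdx5, found in mitochondria, peroxisomes and cytosol, read 22377 and 31825 (0.43). A second Prdx5 probe read 7550 and 14430, a difference of 0.86 that was 0.39 once surface-corrected, and the median of the probes, 0.65, was called higher. Prdx2 read 6108 and 7727 (0.26), with a second probe at 0.86.

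Prdx1, an abundant cytosolic peroxiredoxin and a known NRF2 target, gave a reading that turned on the probe. The probe that represented it (chr4:116372029-116372088, plus strand) read 96809 and 86182 (-0.24). A probe across an exon junction (chr4:116365578-116366348, a span of 771 bases) read 20174 and 45688, 2.15-fold higher, and 0.73 on the log2 scale once surface-corrected. Another, across a junction nearer the start (a span of 1806 bases), read 7120 and 10295 (0.46). The median of its 4 probes was 0.19. No direction is given for the gene.

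In the thioredoxin system no member was called, where 32.6% of all genes were called in either direction. Txnrd1, the cytosolic reductase, read 11980 on WT and 12891 on MeXis null (0.03 ± 0.20). The mitochondrial Txnrd2 read 5745 and 5186 (-0.22), and Txnrd3 read 971 and 1190 (0.22). Txn2, the mitochondrial thioredoxin, read 8205 and 11420 (0.40). Another Txn2 probe was at 0.35, and a dimmer one read 127 and 90.8 (-0.56, and -0.92 after local surface correction). Txnip, which binds and inhibits thioredoxin, read 20024 and 22012 (0.06). For Txnip a second probe was at 0.79 among neighbours with a median of 0.88.

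**Figure D2:**
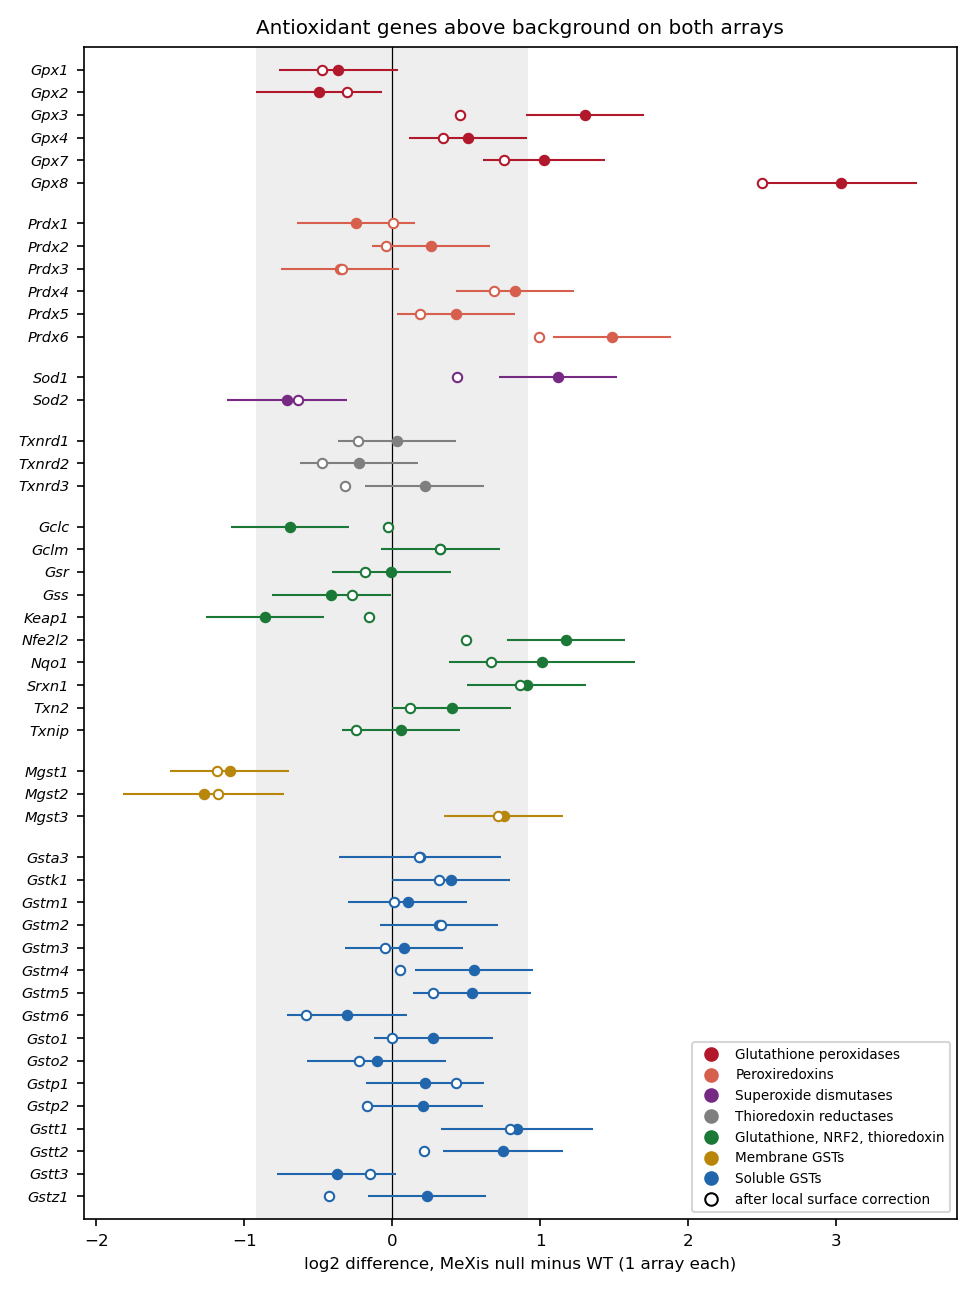
Log2 difference, MeXis null minus WT, of the 46 members above background on both arrays, by family. Filled points give the difference with bars of the 95% range by the scanner error, and open points the difference after local surface correction. The grey band is the 0.91 taken as the spread between spots. It rests on the SD of 0.47 before correction, while the SD after correction was 0.33, so it is wide for the open points. Gpx8 stands apart at 3.04. On correction Nfe2l2, Gpx3, Sod1, Gpx7 and Nqo1 move into the band and Keap1 and Gclc toward 0.

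Superoxide dismutases went in opposite directions. Sod1, the copper-zinc enzyme of the cytosol, read 12376 on WT and 28385 on MeXis null, 2.18-fold higher (1.12 ± 0.20). Its neighbours had a median of 0.68, and the corrected difference of 0.44 was not called. Another array probe, named NAP097170-001, shares a run of 38 bases with the Sod1 probe; it read 6359 and 14075 (1.07, or 0.89 corrected). A dim second Sod1 probe read 40.4 and 51.0 (0.26). Sod2, the manganese enzyme of mitochondria, read 820 and 527, 1.64-fold lower (-0.71 ± 0.21, and -0.64 after correction, but -0.54 and uncalled with normexp). Extracellular Sod3 was below background on both. Catalase, with the marked WT spot kept, read 2250 and 6306, a difference of 1.42.

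Subunits of the phagocyte NADPH oxidase, the source of superoxide, were mostly higher. Of 6 genes compared 4 were called higher (66.7%) and 0 lower, against 18.9% and 13.6% of all genes, and their median was 0.68 against 0.05. The catalytic subunit Cybb read 2349 and 4394 (1.78-fold higher) and the cytosolic subunit Ncf1 1375 and 3576 (2.47-fold). Its small GTPases Rac1 (0.73) and Rac2 (0.63) were higher too, while Cyba (0.29) and Ncf4 (0.07) were not called. Surface-corrected, 3 of 6 were higher and 0 lower, against 11.4% and 13.1% of all genes, with a median of 0.55 against -0.04. Nox1, Nox4, Duox1 and Duox2, oxidases of other cell types, were below background on both.

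Quinone reductase Nqo1, the textbook NRF2 target, read 28.0 ± 4.68 on WT and 59.4 ± 8.67 on MeXis null, 2.02-fold higher (1.01 ± 0.32). Both signals lay near the lowest counted as above background, and the difference was 0.67 after local surface correction and 0.41, uncalled, with normexp. Of 26 measured NRF2 targets outside the set 6 were higher (23.1%) and 2 lower (7.69%) around a median of -0.03, against 18.9% and 13.6% of all genes around 0.05. Malic enzyme Me1 was 3.83-fold higher (64.9 and 262) and ferritin heavy chain Fth1 3.11-fold higher (69373 and 227384, or 0.57 and uncalled after correction). Taldo1, transaldolase of the pentose phosphate pathway, was 2.97-fold lower (99931 and 35480) and heme oxygenase Hmox1 1.56-fold lower (31847 and 21459, or -0.47 and uncalled after correction). Txn1 and Slc7a11 stand in this list as well as in that of the glutathione cycle. The surface-corrected counts were 2 of 26 higher and 3 of 26 lower around -0.08, against 11.4% and 13.1% around -0.04.

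**Figure D3:**
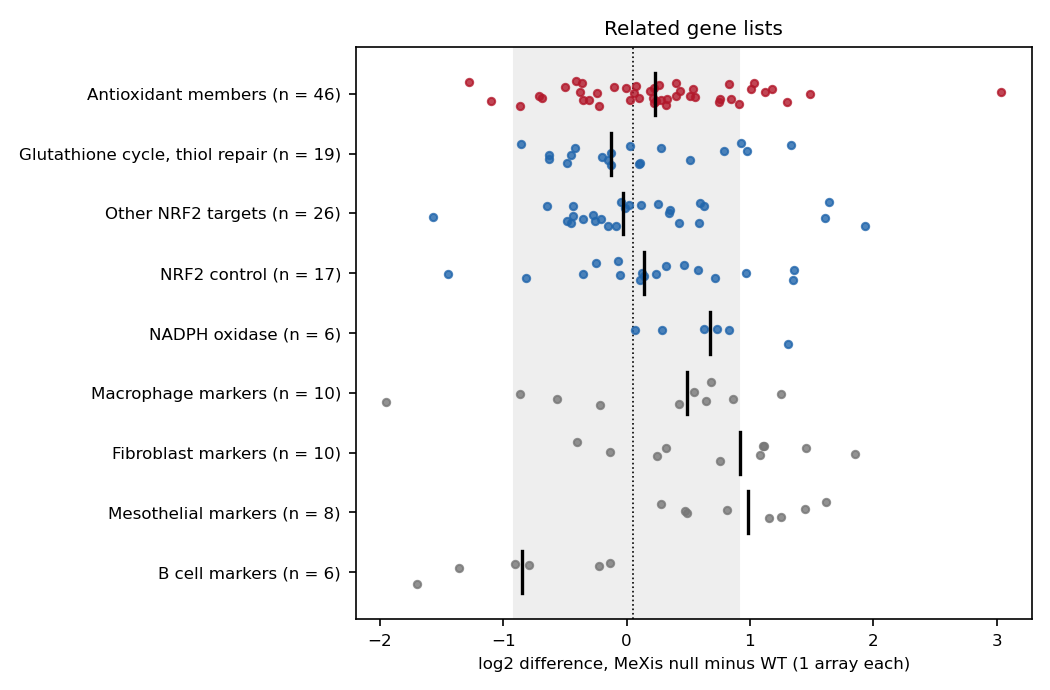
Log2 difference, MeXis null minus WT, of each gene above background on both arrays in the antioxidant set, in 4 related lists and in 4 cell marker lists. Vertical bars are medians, the dotted line is the median of all genes at 0.05 and the grey band spans 0.91 either way; the NADPH oxidase list lies wholly above 0, its median at 0.68, while other NRF2 targets are spread around -0.03.

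The membrane-bound glutathione transferases held both of the members that were lower beyond the spread between spots. Mgst2, which can conjugate glutathione to leukotriene A4, read 156 on WT and 68.2 on MeXis null, 2.42-fold lower (-1.27 ± 0.28, and -1.18 after local surface correction). Mgst1, an abundant enzyme of the endoplasmic reticulum and the mitochondrial outer membrane, read 29398 and 14450, 2.14-fold lower (-1.10 ± 0.20, and -1.18 after correction). Its second probe read 14599 and 17625 (0.20, and 0.22 after correction), so the 2 probes disagreed in direction and the gene's median of -0.45 was not called. Mgst3 read 1146 and 2035, 1.69-fold higher (0.75 ± 0.20, and 0.71 after correction, but 0.52 and uncalled with normexp).

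Of 16 soluble glutathione S-transferases above background on both arrays, 2 were higher, both of theta class, and 0 lower. That is 12.5% higher against 18.9% of all genes, where 13.6% were lower. The median was 0.23 against 0.05, and 0.03 against -0.04 after local surface correction, when 1 was higher (6.25% against 11.4%). Gstt1 read 60.9 on WT and 115 on MeXis null, 1.80-fold higher (0.85 ± 0.26, and 0.80 after correction). Gstt2 read 292 and 517, 1.68-fold higher (0.75 ± 0.21), but was at 0.22 after correction, and a second probe was at -0.64. Gstt3 read 892 and 724 (-0.38). The mu class genes lie side by side on chromosome 3, and 6 of its members were measured, from -0.31 for Gstm6 to 0.55 for Gstm4. Gstm1 read 24906.5 and 28195 (0.10) with a probe whose listed position is on chromosome 5, and 0.28 with a probe inside the chromosome 3 group. Gstm3 read 44108 and 49049 (0.08).

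The pi class pair was not called. Gstp1 read 1457 and 1791 (0.22), from a probe also listed under Gstp2, and Gstp2 read 13280 and 16197 (0.21). After local surface correction they were at 0.43 and -0.17. Among the remaining classes Gsto1, which reduces dehydroascorbate, read 4759 and 6082 (0.28), with its other probe set aside as an outlier, and Gsto2 read 136 and 133 (-0.10). Gstz1, an isomerase of tyrosine breakdown, read 1214 and 1506 (0.24), the mitochondrial and peroxisomal Gstk1 608 and 844 (0.40), and Gsta3 50.3 and 60.3 (0.19). None of these was called. Family members have similar sequences, and cross-hybridisation to copies outside the array's probes was not analysed.

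Agreement of probes limited what single probes showed. Of 16 members with several usable probes, 6 had probes of opposite sign, or 37.5%, against 54.6% of 5202 genes on the whole array. After local surface correction the order turned, with 9 of 16 members (56.2%) against 51.5% of all genes. The range between probes of one gene had a median of 0.66, against 0.69 over all genes, and of 0.48 against 0.52 after correction. The widest were 1.41 for Nfe2l2, 1.39 for Gstt2, 1.35 for Prdx1, 1.34 for Prdx6 and 1.30 for Mgst1. The other 30 members above background rested on 1 usable probe, among them Gpx8, Gpx7, Prdx4, Srxn1, Mgst2, Nqo1 and Keap1.

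**Figure D4:**
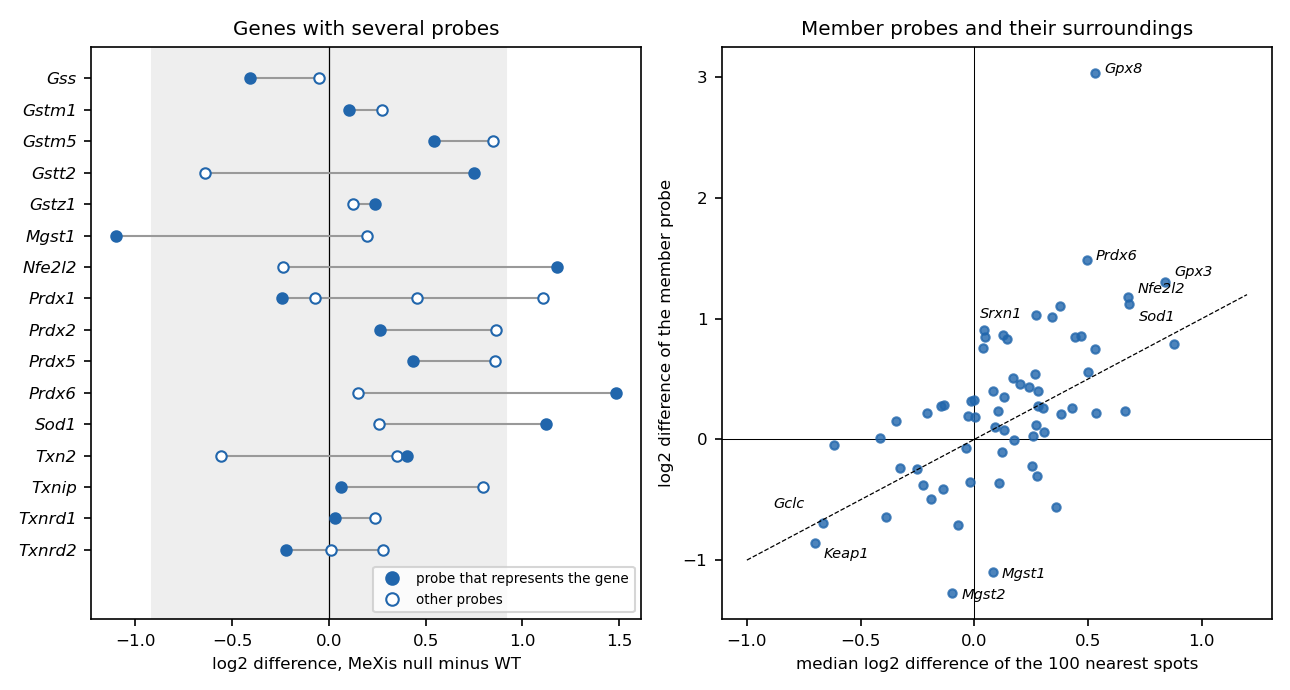
Left, log2 difference of every usable probe of the 16 members with several probes, the representing probe filled and the grey band spanning 0.91 either way. Right, log2 difference of each member probe against the median difference of its 100 nearest spots, the dashed line marking equality; Keap1, Gclc, Nfe2l2, Sod1 and Gpx3 lie among neighbours shifted the same way, while Gpx8, Mgst1, Mgst2 and Srxn1 lie far from their neighbours' median.

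The core of the antioxidant response element, TGACNNNGC on either strand, was searched in RefSeq promoter windows of GRCm38.p6, from 250 bases before to 50 after each start. It was present in 16.1% of 62 windows of 48 matched members, against 12.4% of 32851 windows of all genes. The 10 members with a match were Gclm, Gsta3, Gstm5, Gstm7, Mgst1, Nfe2l2, Prdx1, Sod1, Srxn1 and Txnrd1. Of these, Nfe2l2, Sod1 and Srxn1 were called higher and Mgst1 lower, so a match stood beside both directions. By gene, that is 3 of the 10 matched higher members (30%) and 1 of the 4 matched lower members (25%). The share by gene was 20.8% of the 48 matched members and 13.99% of all 27025 genes. Whether these shares differ was not tested. Gclc, Gsr, Gsta4, Gstt2, Prdx6 and Sod3 had no matched window and were not searched. The windows of Srxn1 and Mgst1 are shown as one gene of each direction, 5′ to 3′ along the gene with the match in capitals.
Srxn1 (chr2:152105274-152105573, plus strand): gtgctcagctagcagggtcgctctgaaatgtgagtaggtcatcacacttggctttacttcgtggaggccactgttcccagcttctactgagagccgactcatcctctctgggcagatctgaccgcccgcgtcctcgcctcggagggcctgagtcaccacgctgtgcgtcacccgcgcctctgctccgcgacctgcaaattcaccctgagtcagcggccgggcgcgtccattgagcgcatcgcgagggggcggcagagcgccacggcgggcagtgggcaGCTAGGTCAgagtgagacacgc
Mgst1 (chr6:138140277-138140576, plus strand): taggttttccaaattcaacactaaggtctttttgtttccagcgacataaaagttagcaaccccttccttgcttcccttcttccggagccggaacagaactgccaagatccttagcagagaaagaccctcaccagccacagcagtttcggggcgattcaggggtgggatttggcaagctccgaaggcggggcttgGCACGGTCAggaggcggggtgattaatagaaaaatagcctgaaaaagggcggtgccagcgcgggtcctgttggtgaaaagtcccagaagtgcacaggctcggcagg
In both the match lies on the opposite strand, 56 bases before the start for Mgst1 and 28 bases after it for Srxn1. A match of these letters is a description of the window and not a measured binding site.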

How the data were processed

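Each deposited scanner file gives an intensity per spot, linear and already background-subtracted and detrended by Agilent Feature Extraction 11.5.1.1 according to its header. Probe positions refer to mm9, per the file headers. The authors' deposited value table held the same processed intensity for all 62976 features, within a millionth part (array medians 12.9 and 17.0), so it is linear and uncentred. Control spots and outlier spots (305 on WT, 205 on MeXis null) were left out, and 0 spots were saturated. Spots of a probe were averaged as log2 values, and the probe with the highest mean signal stood for its gene. Genes outside the set were named through a RefSeq table of GRCm38.p6 (32918 probes by accession, 10214 by symbol, 519 by synonym, 12869 as in the file). The median scanner error of a difference was 0.20.

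Called members, the 2 brightest of each family, the enzymes listed singly and the 2 highest and 2 lowest genes of each related list were named by rule, and other genes after their values were seen. Alternatives covered scaling (including loess with span 0.3 and quantile), normexp with an offset of 50 (limma 3.58.1), local surface correction, filters on dim probes, the choice of probe, outlier spots, the value table and the call threshold. Simulated data with known differences were used to check the steps. One gene of a related list is not reported here. The members and lists were chosen with earlier results of these data known. With 1 array per genotype, the number of arrays limits the precision.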

Additional observations from a re-analysis of the deposited data

How the results depend on the processing

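The member median of 0.23 was 0.32 with normexp and 0.011 with local surface correction, and lay between 0.15 and 0.24 under the remaining alternatives. The count of 12 higher members lay between 8 (local surface correction) and 13 (normexp, outlier spots kept), and that of 5 lower members was 3 with local surface correction, 4 by the median of probes and 5 under every other scaling, background or filter setting. Over all genes the share of calls that were higher was 58.1%, and 46.6% with local surface correction. At 2-fold the counts were 7 and 2. No called member changed sign in any alternative that gave it a value, and Gpx8 and Nqo1 were removed by the stricter filter on dim probes, which left 10 higher members. Of the single-gene values under alternatives, 483 moved by less than the SD of 0.47 between spots and 20 by more, of which 11 were under local surface correction. Signals near background limit Nqo1 and Gpx8. No paired analysis was possible because each genotype had 1 array.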
